A study of Mus musculus with 19 samples.

Results

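Rbfox1, Rbfox2, Rbfox3, Nova1, Nova2, Elavl2, Elavl3, Elavl4, Ptbp2 and Celf4 code for RNA-binding proteins that neurons use to choose exons. These 10 genes were taken by symbol and matched to their Ensembl gene IDs, and they are 10 of the 39017 genes in the tables. All 10 passed the filter on low counts and were tested among 13926 genes. The libraries come from translating ribosome affinity purification (TRAP), which pulls down tagged ribosomes of 1 cell type together with the mRNA on them. Female mice, with the background spelled C56BL/6J in the labels, carried either Drd1::EGFP-L10a or Drd2::EGFP-L10a, so that a green fluorescent ribosomal protein is made in cells that use that dopamine receptor gene. Striatum was taken at 42 days (young) or 2 years (old), which gives 4 groups of 4 libraries, called young D1, old D1, young D2 and old D2 here. All 4 groups carry a tag, and no group without one was analysed here. The series' 3 ribosome profiling samples of the fibroblast line NIH-3T3 are not analysed here.

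Splicing regulators of this kind bind short motifs in introns and exons of a nascent transcript. Depending on where they sit, they promote or block the use of the exon beside them. Rbfox proteins bind the letters TGCATG (with U for T in the RNA), and Rbfox3 is the antigen known as NeuN, a marker of mature neurons. Nova proteins bind short clustered motifs and were found as targets of an autoimmune movement disorder. Elavl2, Elavl3 and Elavl4 (HuB, HuC and HuD) bind U-rich stretches and also steady mRNAs in the cytoplasm. Ptbp2 replaces Ptbp1 as neurons arise and holds back exons of the mature neuron, and Celf4 binds many mRNAs of synaptic proteins. Several of these genes also splice their own transcripts. Rbfox proteins can skip an exon that codes for part of their own RNA recognition motif.

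That exon is 93 bases long in each of the 3 Rbfox genes, and it is shown because an isoform of Rbfox3 without it is among the results. The exons lie inside the coding part at chr16:7292185-7292277 (Rbfox1, plus strand), chr15:77105577-77105669 (Rbfox2, minus strand) and chr11:118502842-118502934 (Rbfox3, minus strand) of GRCm38, the assembly behind mm10. Positions came from GENCODE M21 and letters from the RefSeq copy of GRCm38. Capitals mark the bases that all 3 genes share, which are 67 of 93.
Rbfox1: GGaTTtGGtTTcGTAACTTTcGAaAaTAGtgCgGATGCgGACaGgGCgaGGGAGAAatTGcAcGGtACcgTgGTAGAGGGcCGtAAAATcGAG
Rbfox2: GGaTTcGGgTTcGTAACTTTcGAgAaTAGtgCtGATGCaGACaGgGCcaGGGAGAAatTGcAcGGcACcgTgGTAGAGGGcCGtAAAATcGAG
Rbfox3: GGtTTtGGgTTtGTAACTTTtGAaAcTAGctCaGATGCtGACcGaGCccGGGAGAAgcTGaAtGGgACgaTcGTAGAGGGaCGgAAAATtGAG
Rbfox1 and Rbfox2 have the same base at 92.5% of the positions, and each shares 74.2% with Rbfox3. The introns before the exon differ more, and the last 150 intron bases are shown with TGCATG in capitals.
Rbfox1: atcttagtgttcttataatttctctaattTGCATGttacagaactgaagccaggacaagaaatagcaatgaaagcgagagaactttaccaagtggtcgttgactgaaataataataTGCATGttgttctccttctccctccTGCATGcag
Rbfox2: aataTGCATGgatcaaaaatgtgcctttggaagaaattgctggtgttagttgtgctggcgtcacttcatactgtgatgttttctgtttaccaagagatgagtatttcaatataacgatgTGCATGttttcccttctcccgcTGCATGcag
Rbfox3: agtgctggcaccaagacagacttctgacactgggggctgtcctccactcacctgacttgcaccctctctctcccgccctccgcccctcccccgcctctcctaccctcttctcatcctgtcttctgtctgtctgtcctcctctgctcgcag
In the 300 bases before the exon, TGCATG occurs 3 times in Rbfox1 and 3 times in Rbfox2 on the strand of the transcript, and in the 300 bases after it 1 time in each. No match was found in either window of Rbfox3. Over 165262 internal coding exons, 10.5% have TGCATG in the 300 bases before them and 11.6% in the 300 bases after them. The reverse complement CATGCA occurs 1 time before the Rbfox1 and Rbfox2 exons, where it overlaps a TGCATG, against 9.2% of exons. A match is a description of the letters and does not show binding.

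The libraries hold 27484038 to 70903004 assigned fragments, so each member except Elavl4 in 1 young D2 library (12 fragments) rests on more than 100 fragments in every library. The old D1 libraries stand apart. In them 10369 to 13705 genes were detected against 12783 to 15000 in the other 12, with a mean fragment length of 151 to 164 bases against 170 to 195. Markers went with the labels: 7 D1 neuron genes sum to 2630 to 3460 TPM (a level scaled by length and library) in young D1, 4830 to 7690 in old D1, 144 to 170 in young D2 and 439 to 689 in old D2. The 5 D2 neuron genes sum to 7620 to 8850 in young D2, 5460 to 11500 in old D2, 108 to 223 in young D1 and 112 to 551 in old D1. Cholinergic interneurons, which also use the Drd2 gene, had 4 markers at a sum of 11 to 27 TPM in the D2 libraries and 0.18 to 5.25 in the D1 libraries. The summed D1 neuron genes were thus higher in all 4 old D2 than in all 4 young D2 libraries. In old D1 the 8 markers of GABAergic interneurons summed to 31.3 to 605 TPM and the 6 of cortical glutamatergic neurons to 0.77 to 139, the widest ranges of any group. The 8 oligodendrocyte markers summed to 127 to 295 TPM in young D1, 75.9 to 191 in old D1, 159 to 269 in young D2 and 255 to 359 in old D2. The 7 astrocyte markers summed to 19.2 to 88.4, 23.1 to 58.2, 11.4 to 17.4 and 38.4 to 53.9 TPM in the same order. The part of these cells in the members' values was not tested. The index sequences in the labels differ between the groups compared, so index and group cannot be told apart. In these bulk libraries fewer cells of a type and less RNA per cell cannot be told apart either.

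Rbfox1, Rbfox3 and Celf4 were the 3 most abundant members in all 4 groups. Over the 16 libraries they averaged 512, 338 and 359 TPM, above 98.3%, 97.1% and 97.4% of the genes tested. Rbfox2 averaged 42.9, Elavl3 55.3, Nova2 32.6, Nova1 25.2, Ptbp2 23.1, Elavl2 21.3 and Elavl4 14.2 TPM, against a median of 14.6 TPM over all genes tested. In young D1 the order was Rbfox3, Rbfox1, Celf4, Elavl3, Rbfox2, Nova2, Nova1, Ptbp2, Elavl4 and Elavl2. There the ranges of neighbours overlapped at every step except from Celf4 (294 to 392 TPM) to Elavl3 (44.4 to 54.3 TPM). In young D2 Rbfox1 came first, and its range stood clear of Rbfox3 next to it. Old D2 also began with Rbfox1, followed by Celf4 with an overlapping range and then by Rbfox3, which was clear of both neighbours. In old D1 only the step from Rbfox3 to the next gene, Elavl2, separated the ranges. Elavl2 ranks above Elavl3 there through 1 library being higher than it in 1 of 4. The plot of levels by library gives all of these values.

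**Figure D1:**
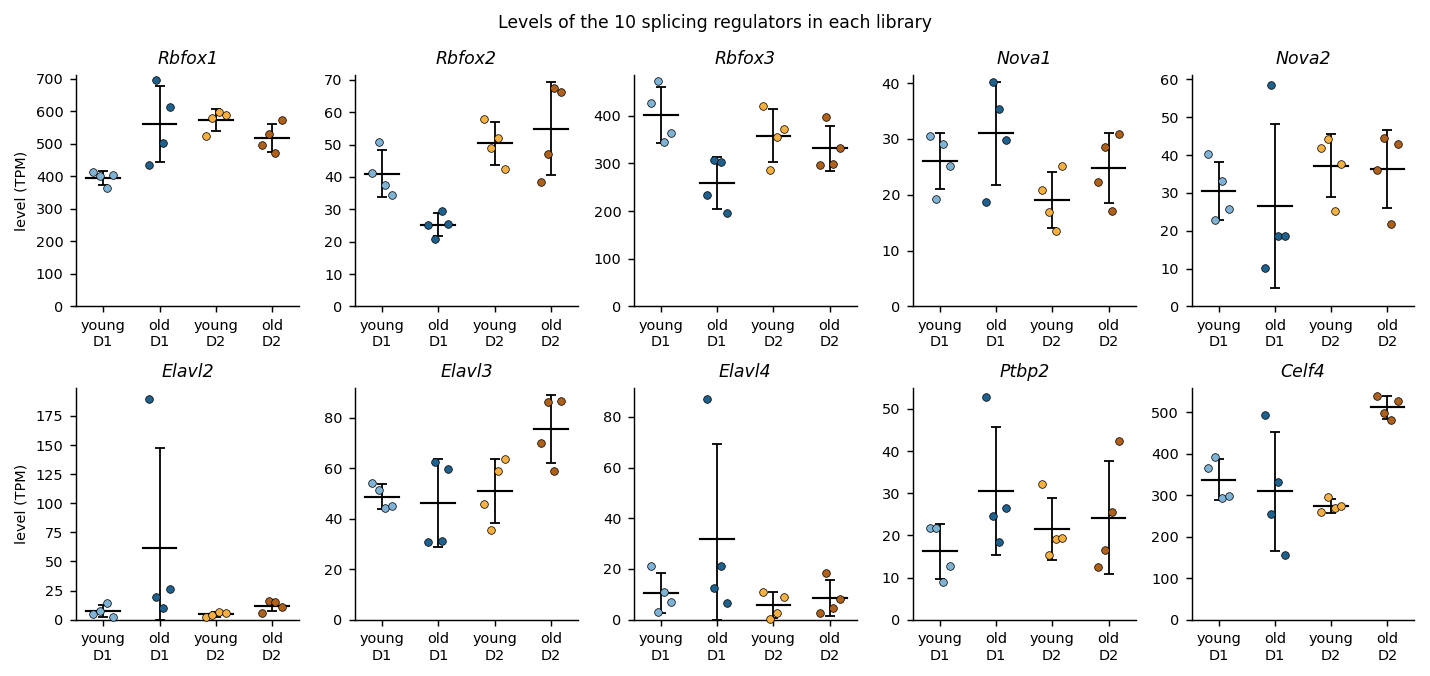
Level of each member in TPM (y axis, from 0, a different scale in each panel) in the 16 libraries, by group (x axis). Points are libraries, lines are means and bars are the SD of 4 libraries, stopped at 0. Rbfox1 is higher and Rbfox2 and Rbfox3 are lower in old D1 than in young D1 with no overlap, Celf4 is higher in old D2 than in young D2, and Elavl2 and Elavl4 have 1 high library in old D1.

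How D1 neurons differed between 2 years and 42 days was asked first. The neuronal Rbfox genes went in different directions: Rbfox1 rose, while Rbfox3 and Rbfox2 fell. These 3 of 10 members passed the edgeR test, where 10.8% of all tested genes were called in either direction, and the other 7 did not. Of all genes 19% were called with DESeq2, 3.93% with limma voom and library weights, and 2.49% with edgeR on the 8 D1 libraries alone. The same 3 members had TPM ranges that did not overlap between the ages, against 13.8% of all genes. The median log2 fold change of the 10 members was 0.02 and that of all genes tested was -0.06.

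Rbfox1 stood at 413, 400.4, 363 and 405 TPM in young D1 and at 435, 696, 501 and 613 in old D1. Every old library was above every young one, and the old libraries spread more widely (562 ± 116 against 395 ± 22.4; SD, n = 4 each). The log2 fold change was 0.77 (SE 0.17, adjusted p = 0.00701), a 1.71-fold rise in fragments scaled by library size. The ratio of mean TPM was smaller, 1.42, because TPM divides by the length of the isoforms that were assigned. That length, averaged by isoform share, was 2798 to 3503 bases in young D1 and 3801 to 3977 in old D1.

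Rbfox3, the NeuN gene, stood at 428, 473, 346 and 363 TPM in young D1 and at 233, 306, 303 and 196 in old D1. The highest old library was below the lowest young one. The log2 fold change was -0.81 (SE 0.18, adjusted p = 0.00636).

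Rbfox2, which is used in many tissues besides neurons, stood at 41.4, 50.9, 37.4 and 34.3 TPM in young D1. The old D1 values were 25.2, 20.9, 29.4 and 25.6 TPM, again all below the young ones. The log2 fold change was -0.81 (SE 0.23, adjusted p = 0.031). Over 7 other ways of fitting, its log2 fold change ran from -0.92 to -0.67 and its adjusted p from 0.0082 to 0.154. The adjusted p exceeded 0.05 on leaving out any of young D1 replicates 1, 2 and 4 and old D1 replicates 1 and 2, with 0.098 as the highest. The calls of Rbfox1 and Rbfox3 held without any 1 of the 8 libraries (adjusted p up to 0.0282 and 0.0261), but both missed 0.05 when only the 8 D1 libraries were fitted (0.0844 and 0.0527). Each of the 3 calls was kept in 4 of the 7 other ways of fitting. Oligodendrocyte markers were lower in old D1 too, with 0 of 8 positive, 0 called and a median log2 fold change of -1.35. Their summed TPM ranges overlapped between the ages (75.9 to 191 against 127 to 295). Their part in the Rbfox2 value was not tested.

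The age changes of the members in D1 followed their base composition. The 5 members whose main isoform has a GC content of 38.3 to 45.0% (Elavl2, Elavl4, Nova1, Ptbp2, Rbfox1) all had a positive log2 fold change, and the 5 at 49.5 to 56.7% (Rbfox2, Celf4, Elavl3, Nova2, Rbfox3) all had a negative one. Across 13821 genes the rank correlation of the D1 age change with GC content was -0.339, and genes are not independent replicates. In D2 it was -0.006. When the smooth trend of each library over GC content and length was removed from the counts, Rbfox3 no longer differed between the ages beyond its error (log2 0.11, SE 0.16, adjusted p = 0.753). Rbfox1 kept its direction without passing the test (log2 0.38, SE 0.16, adjusted p = 0.148). Rbfox2 remained lower in old D1 (log2 -0.92, SE 0.24, adjusted p = 0.0277), in a fit that called 5.98% of all genes. The plot of age changes sets both fits side by side.

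**Figure D2:**
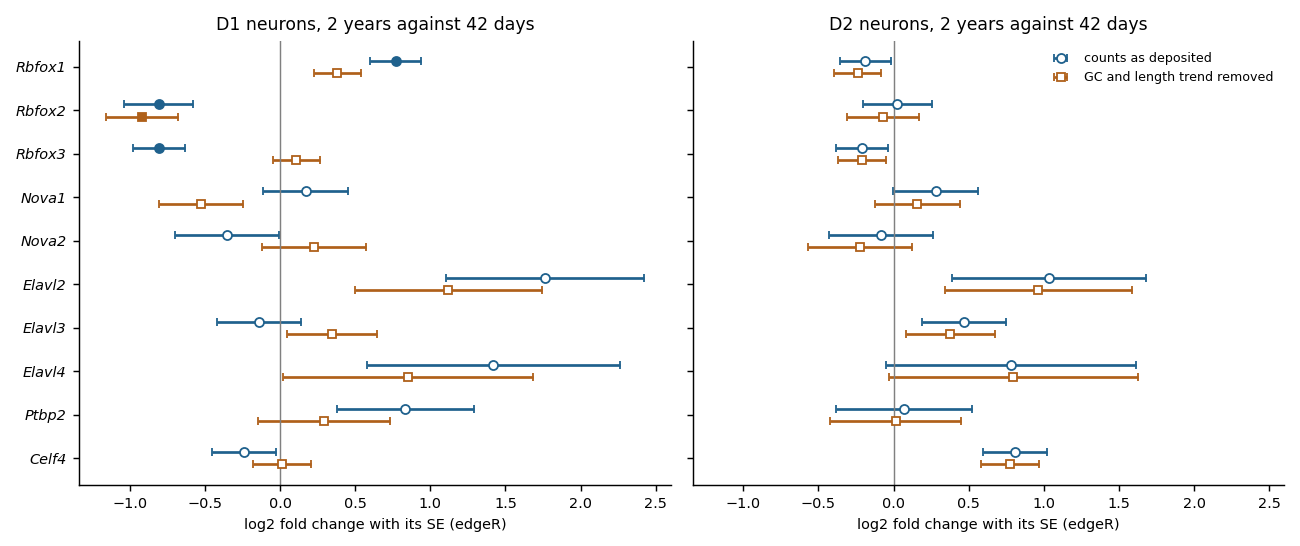
Log2 fold change of each member between 2 years and 42 days (x axis, bars are the SE from edgeR) in D1 neurons (left) and D2 neurons (right), from the counts as deposited (blue circles) and with the GC and length trend of each library removed (brown squares). Filled symbols have an adjusted p under 0.05. In D1, Rbfox1, Rbfox2 and Rbfox3 are filled in the first fit and Rbfox2 in the second, and no symbol is filled in D2.

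Of the 7 members that did not pass in D1, Elavl2 had the largest log2 fold change, 1.76 (SE 0.66, adjusted p = 0.0915). It passed with DESeq2 (0.0191) and without old D1 replicate 3 (0.0388). That library had the lowest Elavl2 of old D1 (10.3 TPM). Leaving it out removes a contrary value, so the smaller p value is no further support. Next came Elavl4 with 1.42 (SE 0.84, adjusted p = 0.298). Ptbp2, the neuronal polypyrimidine tract protein, stood at 8.83 to 21.8 TPM in young D1 and 18.4 to 52.8 in old D1 (log2 0.83, SE 0.46, adjusted p = 0.254). Nova1 (log2 0.17), Nova2 (-0.35), Elavl3 (-0.14) and Celf4 (-0.24) had changes within about 1 SE of 0, and their ranges overlapped between the ages. Celf4 spread in old D1 from 156 to 494 TPM, where young D1 held 294 to 392. Nova2 values are uncertain, because 2652 exon bases overlap the antisense gene Gm26821 (33.4 TPM on average) and the strand setting of the counting is not given in the sources used here.

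D2 neurons were compared between the same ages. No member passed the edgeR test (0 of 10, where 0.079% of all genes were called), 1 of 10 had an unadjusted p under 0.05 (5.75% of all genes), and DESeq2 called 0 members and 0.747% of all genes. That member was Celf4, which stood at 259, 297, 269 and 274 TPM in young D2 and at 540, 499.5, 481 and 529 in old D2. The groups did not overlap, as for 7.07% of all genes, and each spread little. The log2 fold change was 0.81 (SE 0.21, adjusted p = 0.331). Astrocyte markers were also higher in old D2, with summed TPM of 38.4 to 53.9 against 11.4 to 17.4 and 7 of 7 positive, 0 of them called. The 7 D1 neuron genes were higher there too, at a sum of 439 to 689 against 144 to 170 TPM. All 7 were positive and 4 were called. The part of either list in the Celf4 value was not tested. Fits of fewer libraries and of weighted libraries gave Celf4 smaller values: adjusted p = 0.0119 with edgeR on the 8 D2 libraries alone and 0.00134 with limma voom and library weights, which called 0.299% and 1.2% of all genes. With DESeq2 it was 0.0569, and after correction for GC content and length, a fit that called 0.0934% of all genes, it was 0.233. Rbfox1 (log2 -0.19), Rbfox2 (0.02) and Rbfox3 (-0.21) had values within little more than 1 SE of 0 in D2. Elavl2 (1.03, SE 0.65), Elavl4 (0.78, SE 0.83) and Elavl3 (0.47, SE 0.28) were positive without passing.

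Whether the age change differs between D1 and D2 neurons was tested as a difference of the differences. Rbfox1 passed (log2 0.96, SE 0.24, adjusted p = 0.047), as 1 of 10 members, where 1.77% of all genes were called. DESeq2 called 7.47% of all genes here, voom with library weights 1.31%, and edgeR without the GC and length trend 0.819%. The age change of Rbfox1 was 0.77 in D1 and -0.19 in D2. The call was near the threshold: it was lost in 14 of 16 fits that each left out 1 library, with adjusted p up to 0.138, and in 4 of 6 other ways of fitting, with adjusted p up to 0.189. Celf4 had the opposite sign, -0.24 in D1 against 0.81 in D2 (difference -1.05, SE 0.30), and missed the threshold (adjusted p = 0.0736). It passed with DESeq2 (0.024), with voom and library weights (0.0261) and without old D1 replicate 1 (0.0119). That library had the highest Celf4 of old D1 (494 TPM). Leaving it out removes a contrary value, so the last of these p values is no further support. The differences of Rbfox2 (-0.83, adjusted p = 0.19) and Rbfox3 (-0.60, adjusted p = 0.215) did not pass, so the falls seen in D1 are not shown to differ from the values in D2.

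At 42 days D1 and D2 neurons were compared directly. No member was called (0 of 10 with edgeR, where 0.409% of all genes were), and 1 had an unadjusted p under 0.05 (6.01% of all genes). DESeq2 called 0 members and 1.37% of all genes, and edgeR on the 8 young libraries alone called 0.76% of all genes. Rbfox1 had the smallest p, and its 363 to 413 TPM in young D1 lay below the 524 to 599 TPM in young D2 without overlap, as for 6.35% of all genes. The log2 fold change of D1 over D2 was -0.43 (SE 0.17, adjusted p = 0.652), and voom with library weights gave an adjusted p of 0.0443 and called 1.46% of all genes. Nova1 (log2 0.56, SE 0.28) and Celf4 (0.41, SE 0.21) were higher in D1 on average, with adjusted p of 0.879 and 0.891. The other 7 had adjusted p of 0.999.

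At 2 years Rbfox2 was lower in D1 than in D2 neurons, with 20.9 to 29.4 TPM against 38.6, 47.0, 67.7 and 66.3. It was the only member called (1 of 10, where 9.6% of all genes were) and the only one whose TPM ranges did not overlap (14.8% of all genes). The log2 fold change was -1.02 (SE 0.23, adjusted p = 0.00919), so D1 held 0.492 of the D2 level. Oligodendrocyte markers were lower in the same direction, with summed TPM ranges that did not overlap (75.9 to 191 against 255 to 359), 0 of 8 positive, 1 called and a median log2 fold change of -2.29. Their part in the Rbfox2 value was not tested. It was called without any 1 of the 8 libraries (adjusted p up to 0.0391) as well as without the GC and length trend (log2 -0.98, adjusted p = 0.0183, 6.64% of all genes called). It was not called with voom and library weights (0.0767, 4.7% of all genes) or on the 8 old libraries alone (0.0659, 2.85%). Rbfox1 (log2 0.53, adjusted p = 0.056) and Celf4 (log2 -0.64, adjusted p = 0.0632) missed the threshold, and both passed with DESeq2 (0.0378 and 0.0384), which called 17.6% of all genes. Without old D1 replicate 1 both passed (0.023 and 0.00408), and without old D1 replicate 3 Rbfox1 did (0.031). Replicate 1 had the lowest Rbfox1 (435 TPM) and the highest Celf4 (494 TPM) of old D1, and replicate 3 the next lowest Rbfox1 (501 TPM). Leaving them out removes contrary values, so these smaller p values are no further support for a difference. Without the GC and length trend Rbfox1 had a log2 value of 0.23 (adjusted p = 0.42) and Celf4 of -0.34 (adjusted p = 0.325), and limma-trend on TPM gave Rbfox1 0.10 (adjusted p = 0.756). The old D1 libraries enter this comparison, the D1 age comparison and the difference of age changes, so the Rbfox2 values in these are not independent.

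Within a library the share of each Rbfox gene in the summed Rbfox TPM does not depend on how the library was scaled. In young D1 Rbfox1 and Rbfox3 were nearly even, at 47.3 ± 3.0% and 47.8 ± 2.6% (SD, n = 4). In old D1 Rbfox1 made up 62.8, 68.0, 60.2 and 73.5% and Rbfox3 33.6, 29.9, 36.3 and 23.4%. All 4 old D1 libraries had more Rbfox1 and less Rbfox3 than all 4 young D1 libraries. The D2 groups held 58.4 ± 4.6% (young) and 57.3 ± 2.4% (old) of Rbfox1, which lie between the D1 groups. As a ratio, Rbfox1 over Rbfox3 was 0.85 to 1.12 in young D1, 1.66 to 3.14 in old D1, 1.25 to 2.01 in young D2 and 1.33 to 1.72 in old D2. Rbfox2 made up 4.9 ± 0.5% in young D1, 3.1 ± 0.7% in old D1, 5.1 ± 0.7% in young D2 and 6.1 ± 1.7% in old D2. These shares come from the same values as the tests above, and Rbfox3 (56.7% GC) and Rbfox1 (45.0% GC) differ in base composition. With the GC and length trend removed, the log2 age change in D1 was 0.38 for Rbfox1 and 0.11 for Rbfox3. The shares were not computed without the trend, and they also depend on the isoform lengths that TPM divides by. The plot of the family's make-up shows each library.

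**Figure D3:**
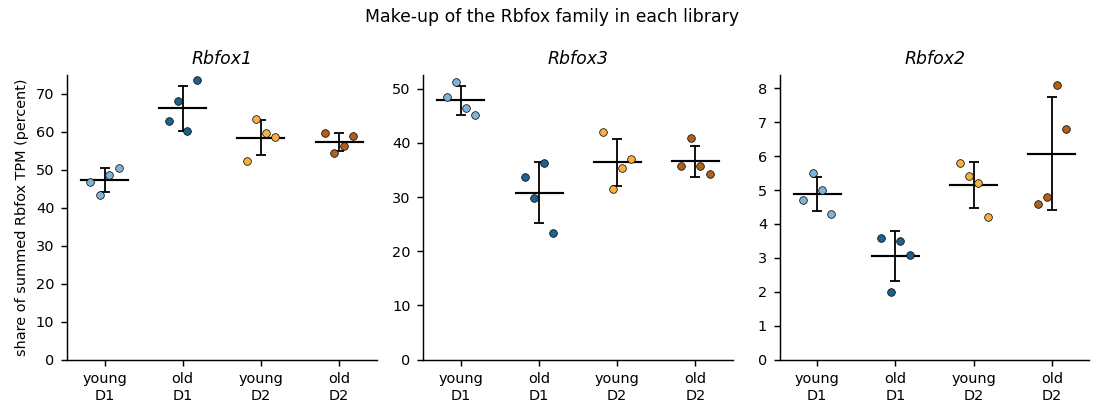
Share of Rbfox1, Rbfox3 and Rbfox2 in the summed TPM of the 3 genes (y axis, percent, from 0, a different scale in each panel) by group (x axis). Points are libraries, lines are means and bars are the SD of 4 libraries. Rbfox1 runs from 43.3 to 50.5% in young D1 and from 60.2 to 73.5% in old D1, and Rbfox3 from 45.2 to 51.2% and from 23.4 to 36.3%.

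Nova1 and Nova2, whose products bind the same motif, were close in level. Nova2 over Nova1 was 1.03 to 1.32 in young D1 and 1.49 to 2.60 in young D2. In old D2 the ratio was 1.27 to 1.61. Old D1 held 3 libraries at 0.53 to 0.63 and replicate 2 at 1.46. The ratio was therefore reversed in 3 of 4 old D1 libraries, and it was over 1 in the other 13. Old D1 replicate 2 had both the highest Nova2 (58.6 TPM against 10.2 to 18.6 in the rest of its group) and the highest Nova1 (40.2 against 18.8 to 35.4). Neither gene passed the test in any of the 5 comparisons. Nova1 (38.5% GC) and Nova2 (56.3% GC) also differ in base composition. With the GC and length trend removed, the log2 age change in D1 was -0.53 for Nova1 and 0.23 for Nova2. Both signs were thereby reversed. The ratio was not computed without the trend, and the overlap of Nova2 with Gm26821 bears on it too.

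The 3 neuronal Elavl genes differ in how far their level can be read. Elavl3 has 1 isoform in the tables (5027 bases) and ran from 30.8 to 86.4 TPM. It stood at 48.8 ± 4.88 TPM in young D1, 46.1 ± 17.4 in old D1, 50.9 ± 12.9 in young D2 and 75.4 ± 13.3 in old D2 (SD, n = 4). Elavl2 has 16 isoforms and Elavl4 has 12, among them fragments of 408 to 869 bases, and RSEM assigned very different ones from library to library. In old D1 replicate 1 the 425-base Elavl2-216 took 83.2% of Elavl2 and the 464-base Elavl4-210 took 88.7% of Elavl4. Elavl2 was listed at 190 TPM there from 1599 fragments, and at 19.1 TPM in old D1 replicate 2 from 1772 fragments, where the 4127-base Elavl2-209 took 100%. Elavl4 was listed at 87.1 TPM from 751 fragments in replicate 1 and at 12.3 TPM from 1067 fragments in replicate 2. TPM of Elavl2 varied 90.3-fold over the 16 libraries, and its CPM (the count scaled by TMM library size, not by length) varied 12.1-fold. In CPM, Elavl4 stood at 22.1, 22.9, 16.1 and 13.8 in old D1 and at 7.87, 4.74, 10.98 and 4.41 in young D1, which do not overlap. Its TPM ranges do overlap, at 6.6 to 87.1 in old D1 and 3.05 to 21.2 in young D1. The share of all genes with CPM ranges apart is not given here. The test on counts did not call Elavl4 (adjusted p = 0.298). The plot of TPM against CPM shows where both scales part.

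**Figure D4:**
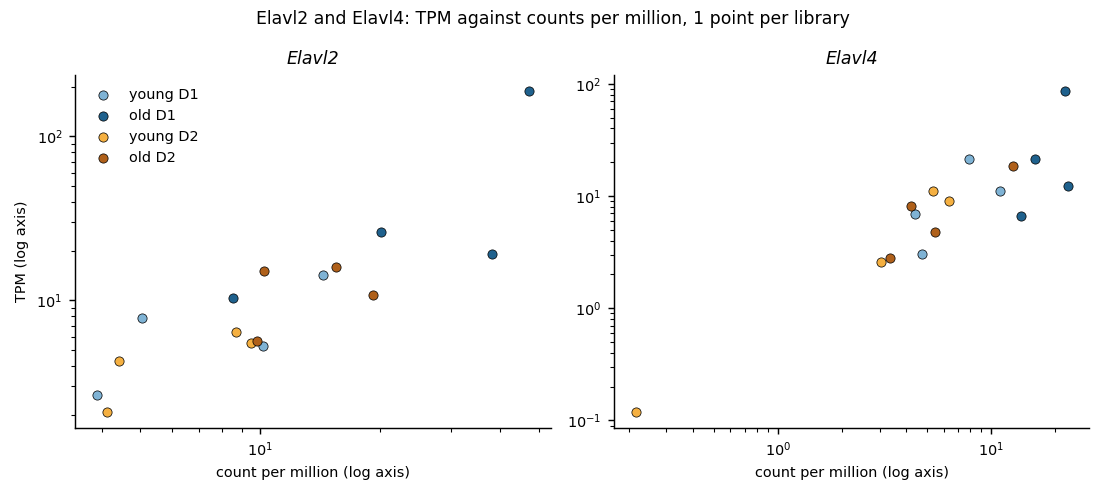
TPM (y axis, log) against CPM scaled by TMM (x axis, log) of Elavl2 (left) and Elavl4 (right), 1 point per library, coloured by group. The highest point in each panel is old D1 replicate 1, at 190 TPM and 47.2 CPM for Elavl2 and 87.1 TPM and 22.1 CPM for Elavl4, while replicate 2 has 38.0 and 22.9 CPM at 19.1 and 12.3 TPM.

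Ptbp2 has 1 isoform in the tables (3364 bases), so its TPM and its CPM move together. It ran from 8.83 to 52.8 TPM, with old D1 replicate 1 the highest and young D1 replicate 3 the lowest. Its group means were 16.3 ± 6.53 in young D1, 30.6 ± 15.2 in old D1, 21.5 ± 7.33 in young D2 and 24.2 ± 13.3 in old D2 (SD, n = 4), and every pair of groups overlapped. Ptbp1, the relative that Ptbp2 replaces in neurons, was listed at 4.87, 3.38, 2.15 and 127.6 TPM in young D1 and at 28.1, 5.78, 2.05 and 0.0 in old D1, so 1 library carries each group's mean. It ran from 7.93 to 35.7 TPM in young D2 and from 9.09 to 24.9 in old D2.

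Isoform shares were then compared, as the percent of a gene's TPM that each of its isoforms holds. Of the 7 members with more than 1 isoform, 35 isoforms were tested, and limma called none in any of the 4 comparisons. It called 2.03% of 23121 isoforms for age in D1, 0.00433% for age in D2, 0.00433% for D1 against D2 at 42 days and 2.47% at 2 years. At an unadjusted p under 0.05 there were 4 member isoforms for age in D1, 7 for D1 against D2 at 2 years and 0 in the other comparisons. Of all isoforms 13.6% and 14.7% were under it in the first and second of these, so 4 and 7 of 35 are near the background. Shares within a gene depend on each other, so the 35 are not separate tests. Rbfox1-201 and Rbfox1-202 mirror each other with the same p, and both are counted in the 4 and in the 7.

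Rbfox1 has 2 isoforms in the tables, which in GENCODE M21 have the same coding sequence of 1188 bases and differ in their noncoding ends. The 1191-base Rbfox1-202 is little more than the coding part. It held 31.2, 44.5, 20.1 and 38.4% in young D1, 20.4 to 40.6% in young D2 and 19.3 to 38.6% in old D2. In old D1 it held 6.8, 3.7, 8.8 and 9.8%, below all 12 other libraries. The change with age in D1 was -26.3 points (SE 6.6) and the difference from D2 at 2 years -22.2 points (SE 6.6), and neither passed (adjusted p = 0.0591 and 0.102). Without young D1 replicate 3, the lowest of its group at 20.1%, the first did (adjusted p = 0.0289). Leaving that library out removes a contrary value, so the smaller p value is no further support for a difference. The other isoform, Rbfox1-201 (4084 bases in the tables, 3061 in GENCODE M21), took the rest, 90.2 to 96.3% in old D1. Old D1 libraries also have the shortest fragments, and the part of this in the shares was not tested.

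Rbfox2 has 4 isoforms, of which the length in the tables equals GENCODE M21 only for Rbfox2-203, so their exon structures are not compared here. Rbfox2-202 held 97.8, 95.5 and 96.3% in old D1 replicates 1, 2 and 4 and 0.0% in replicate 3. Elsewhere it held 0.0 to 24.0%. Rbfox2-203 held 0.0% in the same 3 old D1 libraries, 76.4% in replicate 3 and 21.6 to 84.6% elsewhere. The difference of Rbfox2-202 from D2 at 2 years was 68.9 points (SE 17.2, adjusted p = 0.0519) and the change with age in D1 66.4 points (SE 17.2, adjusted p = 0.0698). Without old D1 replicate 3 both passed (adjusted p = 8.14e-06 and 1.08e-05). That library was the only one of old D1 at 0.0%, so leaving it out removes the contrary value. The smaller p values are therefore no further support for a difference. Rbfox2-202 and Rbfox2-203 have lengths of 6564 and 6573 bases, so this choice hardly moves the TPM of the gene.

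Rbfox3 has 10 isoforms, all with the length that GENCODE M21 gives. Rbfox3-203, the main one, held 56.2 to 83.0% of the gene in all libraries. The next, Rbfox3-205, has a long form of a later exon, which continues the 40-base exon upstream to 181 bases at chr11:118496351-118496531 (minus strand). Both forms code for protein in these isoforms. The long form is shown with the bases of the short form in capitals.
Rbfox3: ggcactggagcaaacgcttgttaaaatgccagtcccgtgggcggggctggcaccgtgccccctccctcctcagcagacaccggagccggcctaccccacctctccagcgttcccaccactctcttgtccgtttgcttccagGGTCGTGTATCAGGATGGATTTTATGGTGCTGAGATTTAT
The 3 isoforms with the long form held 24.3, 21, 20.7 and 22.9% of the 6 that span it in young D1 and 23.9, 20.9, 25.0 and 22.9% in young D2. These 8 young libraries lie close together. Old D2 held 19.4, 32.1, 23.6 and 32.1% and old D1 25.1, 43.8, 16.9 and 38.0%, so the old libraries spread on both sides of the young ones. Rbfox3-205 alone held 15.2 to 22.8% in young D1 and 21.2, 16, 4.4 and 6.3% in old D1 (-7.3 points, SE 4.9, adjusted p = 0.561).

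The 93-base exon is absent from 1 isoform of Rbfox3, Rbfox3-202 (1553 bases). It held 0.0, 26.7, 7.1 and 21.1% in old D1. In the other 12 libraries it held 0.0 to 6.0%. Old D1 replicates 2, 3 and 4 were thus above the other 12, and replicate 1 was not. The change with age in D1 was 12.7 points (SE 5.4, adjusted p = 0.316) and the difference from D2 at 2 years 13.6 points (SE 5.4, adjusted p = 0.249), and neither passed. Rbfox3-202 also has the long form of the later exon and first and last exons of its own, so its share rests on fragments along all of these and is not a direct count of skipped exons. The plot of isoform shares shows the 4 isoforms described.

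**Figure D5:**
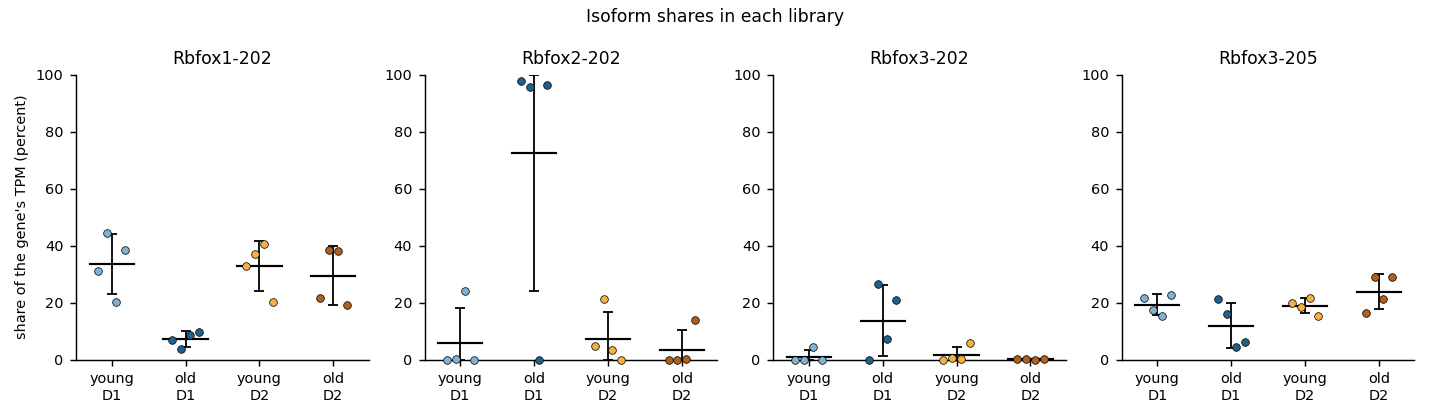
Share of a gene's TPM held by Rbfox1-202, Rbfox2-202, Rbfox3-202 and Rbfox3-205 (y axis, percent) by group (x axis). Points are libraries, lines are means and bars are the SD of 4 libraries, stopped at 0 and 100. In old D1, Rbfox1-202 lies at 3.7 to 9.8%, below every other library, and Rbfox2-202 lies above 95% in 3 libraries and at 0.0% in 1.

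Celf4 has 2 isoforms of nearly equal length (3935 and 3995 bases), so its level does not rest on the choice between them. Celf4-202 held 4.6, 13.2, 13.9 and 36.7% in young D1, 4.5 to 18.1% in young D2, 6.0 to 14.5% in old D2 and 1.7, 62.3, 11.9 and 27.1% in old D1. No comparison of its share had an adjusted p under 0.53. Nova2-201 (8372 bases) held 17.4 to 100.0% in old D1 and 21.8 to 82.3% in the other groups, and its share did not pass either.

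The other genes of this kind were counted from lists. Of 8 family relatives (Ptbp1, Ptbp3, Celf1, Celf2, Celf3, Celf5, Celf6, Elavl1), 2 were called for age in D1, where 10.8% of all genes were. Celf2 was higher in old D1, at 381 ± 147 TPM against 266 ± 85.4 (log2 0.87, SE 0.25, adjusted p = 0.0319). Celf3 was lower, at 38.0 ± 25.1 against 100.3 ± 7.32 (log2 -1.54, SE 0.45, adjusted p = 0.0318). It was also the 1 relative called between D1 and D2 at 2 years (log2 -1.77, SE 0.45, adjusted p = 0.0178), where 9.6% of all genes were. With the GC and length trend removed none of these 3 calls remained. Celf2 missed the threshold on leaving out any of young D1 replicates 2 to 4 and old D1 replicates 1 and 2 (adjusted p up to 0.125). Celf3 missed it for age on leaving out any of young D1 replicates 1, 2 and 4 and old D1 replicate 2 (up to 0.0666). Of 10 other neuronal or developmental splicing regulators, among them Srrm3, Srrm4, Mbnl1, Mbnl2 and Qk, 0 were called in any of the 5 comparisons, with 3 (age in D1), 0 (age in D2), 1 (difference), 1 (42 days) and 1 (2 years) at an unadjusted p under 0.05. Of all genes 26.9%, 5.75%, 16.9%, 6.01% and 25.4% were under it in the same order. DESeq2 called 1 for age in D1 (19% of all genes), 1 at 2 years (17.6%) and 0 in the other 3. Their median log2 fold change for age in D1 was 0.43, and 8 of 10 were positive.

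Genes reported as targets of the members were counted in the same way, at the level of the whole gene and not of a target exon. Of 10 Rbfox targets, 2 were called higher and 1 lower for age in D1, where 10.8% of all genes were called in either direction. Snap25, a protein of the synaptic vesicle fusion machinery, was at 22880 ± 1385 TPM in old D1 against 9808 ± 2817 in young D1 (log2 1.15, SE 0.13, adjusted p = 8.84e-05), and its age change also differed from that in D2 (log2 1.05, adjusted p = 0.0105). Ank2, an ankyrin of the membrane skeleton, was higher (log2 0.91, adjusted p = 0.00889). Grin1, the shared subunit of NMDA receptors, was lower (log2 -1.82, SE 0.36, adjusted p = 0.00367). With the GC and length trend removed Snap25 was still called, and Ank2 (adjusted p = 0.914) and Grin1 (0.15) were not. At 2 years, where 9.6% of all genes were called, Snap25 was higher (log2 1.09, adjusted p = 5.76e-05) and Grin1 lower (log2 -1.37, adjusted p = 0.0215) in D1 than in D2. The latter call ended on leaving out any of old D1 replicates 1 and 2 and old D2 replicates 2 and 3 (adjusted p up to 0.0689). It ended too with voom and library weights and without the GC and length trend, where the log2 fold change was -0.34 (adjusted p = 0.537).

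Of the 8 tested Nova targets, edgeR called 0 in any comparison, with 4 for age in D1 and 2 at 2 years at an unadjusted p under 0.05, where 26.9% and 25.4% of all genes were. DESeq2 called 2 and 1 of them there, and 19% and 17.6% of all genes. Among the tested targets of neuronal Elavl proteins, acetylcholinesterase (Ache) was at 0.0425 ± 0.085 TPM in old D1 against 11.8 ± 11.9 in young D1 (adjusted p = 0.0017) and 8.08 ± 4.21 in old D2 (adjusted p = 0.00288), and no fold is given so near to 0. Both calls were kept in 5 of 7 other ways of fitting, with adjusted p up to 0.0846 and 0.0638. Dlg4 (PSD-95), whose exon 18 is a known target of Ptbp2, was lower in old D1, at 417 ± 177 TPM against 1062 ± 216 in young D1 (log2 -1.64, SE 0.19, adjusted p = 8.84e-05) and 1163 ± 59.4 in old D2 (log2 -1.47, adjusted p = 1.16e-04). It was called in all 7 other ways of fitting both comparisons, but with the GC and length trend removed the log2 fold changes shrank to -0.67 and -0.57. Its age change also differed from that in D2 (log2 -1.36, adjusted p = 0.0178). This call was kept in 4 of 6 other ways of fitting, and with the trend removed the value was -0.37 (adjusted p = 0.487). Of the 2 Celf targets, Syn1, a synapsin of synaptic vesicles, was higher in old D1 than in young D1 (log2 1.09, SE 0.21, adjusted p = 0.00225) and than in old D2 (log2 1.53, SE 0.21, adjusted p = 1.62e-04). Scn8a, a sodium channel, was called between the kinds at 2 years (log2 1.15, adjusted p = 0.0293), and not without old D1 replicate 4 or old D2 replicate 2, 3 or 4. That call was kept in 4 of 7 other ways of fitting (adjusted p up to 0.142). In D2 with age and between the kinds at 42 days, 0 genes of these 5 target lists were called by edgeR or by DESeq2. At an unadjusted p under 0.05 there was 1 Nova target in the first and 1 Celf target in the second, against 5.75% and 6.01% of all genes.

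Genes whose log2 TPM moved most like each member over the 16 libraries were named from 9800 genes with a mean of at least 5 TPM. Rbfox2 was most like Srsf7 (Pearson r = 0.924), Mettl1 (0.907) and Dcaf7 (0.904). Rbfox3 was most like Brsk1 (0.893), Bax (0.876) and Cdk5 (0.841), and Rbfox1 most like Zeb1 (0.824), Lrrc7 (0.803) and Cobl (0.802). Celf4 was most like Prrc2b (0.924), Kcna5 (0.88) and Sesn3 (0.875). For the other 6 the highest r was 0.828 for Nova1 (Cblb), 0.867 for Nova2 (Dip2b), 0.874 for Elavl2 (Fbxo25), 0.799 for Elavl3 (Vmac), 0.809 for Elavl4 (Sdr42e1) and 0.818 for Ptbp2 (Pja2). These values share libraries, depth and the GC trend of old D1, and describe these 16 libraries only.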

How the data were processed

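The data are 16 TRAP libraries of mouse striatum, amplified with NuGEN Ovation V2 (labels' protocols). STAR 2.5.1b, RSEM 1.2.20 and the build mm10 are named in the submitters' processing notes, while no source used here gives the annotation release or whether strand was used. The deposited tables give RSEM expected counts, which are estimated counts of fragments, and TPM for genes and isoforms, per the file headers. The deposited isoform percent and the lengths in bases come from the same RSEM run, per the file headers. Shares were computed here from TPM.

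Expected counts were rounded (20.0% of nonzero gene values were not whole, to a tolerance of 1e-09). Genes were filtered by filterByExpr, scaled by TMM and tested with edgeR 4.0.16 (robust quasi-likelihood, R 4.3.3, all 16 libraries, 1 mean per group, two-sided, Benjamini-Hochberg over 13926 genes, called under 0.05). Isoform shares were tested with limma 3.58.1 over 23121 isoforms with a mean share from 2 to 98%, of genes with a mean count of at least 100, leaving out a library where the gene had under 10. Alternatives used DESeq2 1.42.0, RLE factors, no filter, limma-trend on log2(TPM + 1), voom with library weights, removal of a trend over GC content and length (learnt per library on genes of at least 10 CPM), fits of only the groups compared, and leaving out each library. On simulated data the gene test called few of the genes given the smaller changes and missed most of those given the larger ones. A member that was not called is therefore not shown to be unchanged. The share test made more false calls there than its threshold allows. Replicates are called biological in the design text, their numbers follow the record order and pair nothing, and p-values measure the spread between these libraries. Of 39017 gene IDs, 37607 matched a gene symbol.

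Members and lists were chosen with earlier results of these data known. All 10 members are described in each comparison, isoforms with a mean share of at least 10% in a group were considered, and at most 3 called list genes per direction are named. The result of 1 list gene is not reported here. Among the isoforms, those described in detail were picked after their values were seen. Fragments were counted without molecular identifiers, so counts include amplification copies.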

Additional observations from a re-analysis of the deposited data

Results flagged for a closer look

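Of 100 sets of 4 libraries looked at (TPM and CPM of each member and 5 isoform shares in each group), 8 had a library set far from the other 3. For independent sets with a normal spread, chance flags about 1 in 20. That rate need not hold here, because TPM and CPM of a member are related and many shares lie at or near 0. Elavl2 was at 190 TPM in old D1 replicate 1 against 10.3 to 26.1 in the rest. Nova1 was at 70.3 CPM in young D1 replicate 2 against 102 to 108, and Elavl3 at 110.5 CPM in young D1 replicate 3 against 133 to 137. The share of Rbfox3-202 was 4.30% in young D1 replicate 3 against 0.0%, and 5.98% in young D2 replicate 4 against at most 0.731%. The share of Rbfox2-202 was 24.0% in young D1 replicate 3 against at most 0.0982%, 0.0% in old D1 replicate 3 against at least 95.5%, and 13.9% in old D2 replicate 4 against at most 0.163%. The age change of Rbfox1 differed between D1 and D2 neurons by 0.96 on the log2 scale in the edgeR test of the difference (adjusted p = 0.047), which called 1.77% of all genes. That call was kept in 2 of 6 other ways of fitting and in 2 of 16 fits without 1 library. With the GC and length trend removed the difference was 0.62 (edgeR adjusted p = 0.186).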

How the results depend on the processing

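Counts of called members depended on the fit. Percents in this paragraph are the share of all genes called in the same fit. For age in D1 the count went from 3 (10.8%) to 1 with voom and library weights (3.93%) and 1 after correction for GC content and length (5.98%). It went to 1 with limma-trend on log2(TPM + 1) and to 0 on the groups compared alone (2.49%). For age in D2 it went from 0 (0.079%) to 1 with voom (1.2%) and 1 on the groups compared (0.299%). The difference of age changes went from 1 (1.77%) to 2 with DESeq2 (7.47%) and 2 with voom (1.31%). It went to 0 with the trend removed (0.819%) and with RLE factors, no count filter or limma-trend. When 1 library was left out it ran from 0 to 2. At 42 days voom gave 1 (1.46%) in place of 0 (0.409%). At 2 years the count went from 1 (9.6%) to 3 with DESeq2 (17.6%), 0 with voom (4.7%) and 0 on the groups compared (2.85%). It went to 2 with limma-trend, and from 1 to 3 without 1 library. The shares of all genes for limma-trend, RLE factors, no count filter and the fits without 1 library are not given here.

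Member isoforms called for age in D1 went from 0 (where 2.03% of all isoforms were called) to 1 with a mean share of 10 to 90%, and from 0 to 2 without 1 library. At 2 years they went from 0 (2.47% of all isoforms) to 1 with shares of expected counts and 1 with a gene count of at least 50. They also went to 1 with a mean share of 10 to 90%, and from 0 to 2 without 1 library. The shares of all isoforms called in these other fits are not given here. The alternatives for 4 single isoforms and for named list genes were added after seeing the data.

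Values that were not called changed sign in some fits, and among the called ones that of Rbfox3 for age in D1 did. With the GC and length trend removed, the log2 fold change for age in D1 was 0.109 for Rbfox3, 0.346 for Elavl3, -0.526 for Nova1, 0.011 for Celf4 and 0.226 for Nova2. In the same fit it was -0.071 for Rbfox2 with age in D2, 0.319 for Rbfox3 and 0.45 for Nova2 in the difference, and 0.012 for Elavl3, -0.014 for Nova1, 0.492 for Rbfox3 and 0.384 for Nova2 at 2 years. Voom gave -0.011 for Ptbp2, 0.018 for Nova2 and -0.007 for Rbfox2 with age in D2, and -0.012 for Elavl4 in the difference. Limma-trend gave -0.031 for Elavl3 at 42 days. Without 1 library, Elavl3 ran from -0.372 to 0.026 with age in D1. With age in D2, Ptbp2 ran from -0.297 to 0.332, Nova2 from -0.183 to 0.1 and Rbfox2 from -0.119 to 0.171. Nova1 ran from -0.272 to 0.066 in the difference. At 42 days Elavl3 ran from -0.087 to 0.151, Elavl2 from -0.071 to 0.566 and Nova2 from -0.177 to 0.049. The cause was not tested.

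No paired analysis was possible because the replicate numbers follow the order of the records and the labels tie no library to another. Elavl2 and Elavl4 rest on the fewest fragments, 12 to 1772 per library.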
